A study of Mus musculus with 50 samples.

Results

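The glutathione and antioxidant genes are 38 mouse genes chosen by name: the glutathione transferases, the enzymes that make and recycle glutathione, the glutathione peroxidases, thioredoxin and its partners, the peroxiredoxins Prdx1 and Prdx6, the superoxide dismutases, catalase, heme oxygenase, and the regulators Nfe2l2 and Keap1. They are 38 of the 18193 gene symbols on the arrays and were chosen with earlier results of these data known. Their shares set beside those of all genes are therefore descriptions. A member is represented by the probe set (the group of short probes designed for a transcript) with the highest mean among those annotated to that gene alone. Of the 38, 36 had such a probe set. Prdx1 had only probe sets that also name another gene, and Prdx6 had none. Gstt2 stayed below the median of the whole table on all 50 arrays and was not tested. The remaining 35 members were tested beside all 12883 genes that passed the same filter, a value above the table median on at least 10 arrays.

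Glutathione is a small thiol peptide that is made by glutamate-cysteine ligase (Gclc and Gclm) and glutathione synthetase (Gss) and is returned to its reduced form by glutathione reductase (Gsr). Transferases attach it to electrophiles so that these can be exported, and glutathione peroxidases use it to reduce peroxides. Superoxide dismutases turn superoxide into hydrogen peroxide, which catalase and the peroxidases remove. Many of these genes are targets of the transcription factor NRF2, the product of Nfe2l2, which KEAP1 marks for degradation until oxidants or electrophiles modify KEAP1.

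The 4 infected populations were polyclonal and had been made from young adult mouse colon (YAMC) cells by retroviral infection. The mp53/Ras cells carried the mutant p53 (p53175H) and the activated Ras (RasV12), the mp53 cells p53175H with the Neo vector, the Ras cells RasV12 with the Bleo vector, and the bleo/Neo cells both vectors without an oncogene; YAMC are the uninfected parental cells. All 5 populations carry the H-2Kb/tsA58 transgene, a temperature-sensitive simian virus large T antigen under an interferon γ-inducible promoter, which supports growth at 33 °C. Each population was kept at 39 °C without interferon γ for 48 h and for a further 24 h in medium with 0% serum. RNA bound to polysomes, the messages being translated, was then hybridised to Affymetrix mouse genome arrays, 10 per population. An intensity therefore reflects transcript abundance and ribosome loading together. Each population exists once, so a difference between populations cannot be told apart from a difference between separate derivations of cells. The labels number the 10 replicates without saying whether they were separate cultures, so a p-value here takes in only the variation among these samples, which may be technical.

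Values are log2 intensities, differences are between means of 10 arrays with their standard error from limma (±), and a gene was called at a Benjamini-Hochberg adjusted p under 0.05 over all tested genes of a comparison. Intensities of different probe sets are not comparable with each other. Precision depends on how many arrays a group has and on the spread of each gene among the arrays.

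Over all tested genes, 46 of the 50 arrays lay nearest the mean of their own group. The array labelled mp53 8 lay nearest the YAMC mean, the array labelled mp53 10 nearest the Ras mean, and the arrays labelled Ras 10 and YAMC 2 nearest the mp53 mean. All 4 stay in every value below under their labels, and results that rest on them are also given without them. These arrays were picked by the same values, for lying away from their groups, so leaving them out narrows the spread. Standard errors, p-values and calls without them are therefore descriptions, with p-values that are too small. The keratins Krt8 and Krt18 averaged 11.75 to 12.94 and 10.54 to 12.67 across the 5 populations, whereas the epithelial cadherin Cdh1 averaged 3.95 to 4.31, close to the lowest value of the table (3.04). Of 9 epithelial markers 4 or 5 averaged above the table median (6.44) in each population. Of 6 colon markers 2 did in mp53/Ras, 1 in mp53, 1 in Ras and 0 in bleo/Neo and in YAMC, and none averaged more than 6.53. The fibroblast and smooth muscle genes Col1a1 and Acta2 averaged 12.40 to 13.29 and 13.13 to 13.97, while Lum (3.80 to 4.12) and Pdgfra (6.05 to 6.29) stayed below the table median. Of 4 measured immune markers, the pan-leukocyte gene Ptprc averaged 5.39 to 5.54, and Cd68 (8.41 to 9.96), Csf1r (7.53 to 8.02) and Cd3e (7.13 to 7.42) lay above the table median in every population.

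In the mp53/Ras cells, glutathione and antioxidant genes changed in both directions. Against bleo/Neo, 16 of the 35 were higher, where 26.7% of all tested genes were, and 11 were lower, where 27.9% were; together 77.1% of the members were called, beside 54.6% of all genes. At least 2-fold differences were found for 9 of these: Sod3, Gstp1, Gstm1, Mgst3 and Mgst2 were higher (2.81% of all genes were called and at least 2-fold higher), and Gsta3, Gpx3, Gsta4 and Hmox1 were lower (4.13%). The 10 arrays of each group did not overlap for 12 members (34.3%), beside 17.3% of all genes. The median absolute difference was 0.38 over the members and 0.24 over all tested genes.

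Against YAMC, 13 members were higher in mp53/Ras (29.1% of all genes) and 13 lower (28.7%). The comparisons with bleo/Neo and with YAMC share the mp53/Ras arrays. In 11 members mp53/Ras was higher than both control populations, a pattern of 18% of all genes: the transferases Gstm1, Gsto1, Gstz1, Mgst2 and Mgst3, the peroxidases Gpx4 and Gpx8, the quinone reductase Nqo1, the sulfiredoxin Srxn1, Sod3 and Nfe2l2. In 10 it was lower than both, beside 19.5% of all genes: Gsta3, Gsta4, Gstt3, Gstk1, Gss, Gpx3, Gpx7, Hmox1, Sod1 and Cat. Gstp1 and Gstt1 were called in opposite directions against the 2 controls. At least 2-fold differences from YAMC were found for 4 members, Mgst3 and Sod3 higher (2.03% of all genes) and Gpx7 and Gstk1 lower (3.73%), and the 10 arrays of each group did not overlap for 9 members (16.1% of all genes).

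Fewer members were called with a single oncogene. In mp53 against bleo/Neo, 9 were higher (16.5% of all genes) and 6 lower (18.9%), and in Ras against bleo/Neo 12 were higher (19.7%) and 8 lower (21.4%). In either direction 42.9% of members were called in mp53, beside 35.4% of all genes, and 57.1% in Ras, beside 41.1%. Both comparisons share the bleo/Neo arrays with the one above. At least 2-fold differences in mp53 were those of Gstm1, Gstp1, Gstt1 and Mgst2, higher (1.67% of all genes), and Gpx3, Gsta4 and Gstk1, lower (1.54%). In Ras they were those of Gstm1, Gstp1, Mgst2 and Sod3, higher (2.09%), and Gsta3, lower (1.96%). Arrays did not overlap with those of bleo/Neo for 4 members in mp53, Gpx3, Gstp1, Gstt1 and Mgst2 (4.52% of all genes), and for 5 in Ras, Gpx3, Gsta3, Gstm1, Gstp1 and Mgst2 (6.81%). Against YAMC, mp53 had 8 members higher (11.1%) and 3 lower (11.8%), and Ras had 13 higher (21.5%) and 7 lower (21.2%). Of all genes, 22.9% were called in mp53 and 42.7% in Ras. At least 2-fold differences from YAMC were found in mp53 for Mgst2, higher (0.233%), and Gpx7 and Gstk1, lower (0.567%), and in Ras for Mgst2, Mgst3 and Sod3, higher (1.3%), and Gpx7, lower (1.68%). Arrays did not overlap for 0 members in mp53 (0.241% of all genes) and for Nfe2l2 in Ras (4.18%). Without the 4 arrays the mp53 counts against YAMC were 12 higher (16.8% of all genes at that setting) and 7 lower (16.9%).

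The mp53/Ras cells differed from mp53 in 7 members that were higher (23.3% of all genes) and 13 that were lower (23.8%). They differed from Ras in 3 that were higher (9.12%) and 6 that were lower (12.5%). The shares of 57.1% and 25.7% of members called compare with 47.1% and 21.6% of all genes. Against mp53, Mgst3 and Sod3 were at least 2-fold higher (1.63% of all genes), Gsta3 and Gstt1 at least 2-fold lower (2.07%), and the arrays of 9 members did not overlap (11%). Against Ras, 0 members were at least 2-fold higher (0.179%), Gsta3 was at least 2-fold lower (0.753%), and the arrays of Gpx3, Gss and Gsta3 did not overlap (4.31%). Once the arrays labelled mp53 10 and Ras 10 were left out, 1 member was higher against Ras (9.14% of all genes) and 7 were lower (12.4%).

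The 2 control populations were themselves unlike. In bleo/Neo against YAMC, 9 members were higher (20% of all genes) and 11 lower (17.4%), 57.1% of members beside 37.4% of all genes. Gsta3 was at least 2-fold higher (1.05% of all genes), Gpx7, Gstp1, Gstt1 and Sod3 were at least 2-fold lower (1.72%), and the arrays of 6 members did not overlap (4.88%). Among the 11 lower members were 7 of the 12 tested cytosolic transferases, namely Gstm1, Gstm2, Gstm4, Gstm5, Gstp1, Gstt1 and Gstt3. Of 11 fibroblast and smooth muscle markers, 7 averaged above the table median in bleo/Neo and 9 in YAMC, and their summed log2 level was 14.22 to 14.98 in bleo/Neo and 15.28 to 15.79 in YAMC. Of the 11, 5 had their lowest mean in bleo/Neo and 1, Dcn, its highest (12.92, against 10.69 to 12.04 in the others). The widest gaps were those of a matrix gene and a contractile gene: Col1a2 averaged 8.68 in bleo/Neo and 12.08 to 13.30 in the other populations, and Myl9 6.74 in bleo/Neo and 10.34 to 12.37 in the others. The same list had 8 markers above the table median and a summed level of 14.49 to 14.91 in mp53/Ras, 9 and 14.46 to 15.84 in mp53, and 8 and 14.14 to 15.27 in Ras. Its part in the transferase differences was not tested.

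**Figure D1:**
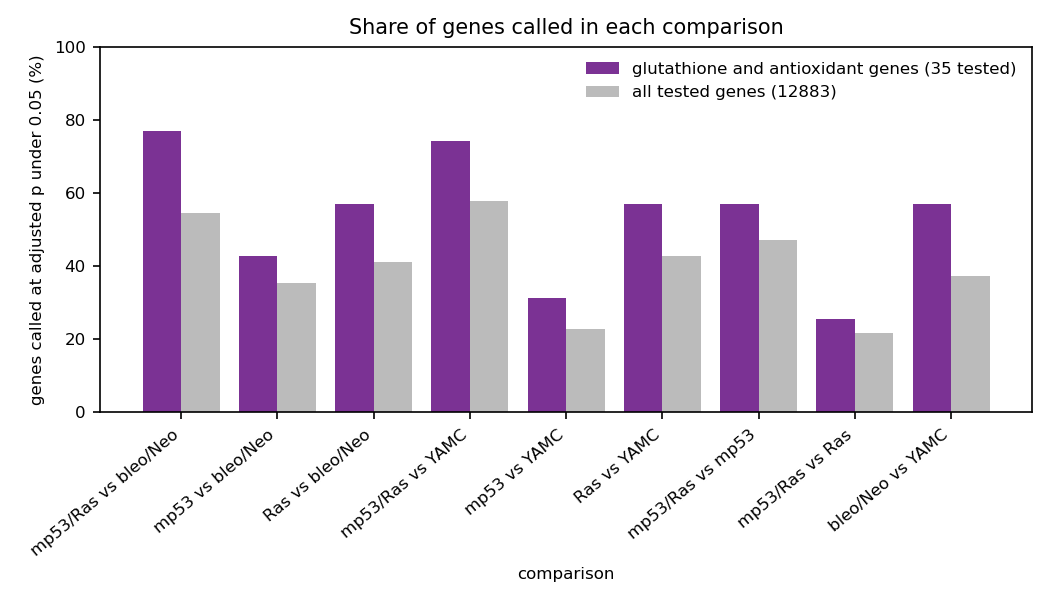
Share of genes called at an adjusted p under 0.05 (vertical axis, percent) in each of the 9 pairwise comparisons (horizontal axis), for the 35 tested glutathione and antioxidant genes (purple) and for all 12883 tested genes (grey). The members' share ranges from 25.7% in mp53/Ras against Ras to 77.1% in mp53/Ras against bleo/Neo, and the share of all genes from 21.6% to 57.8%.

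**Figure D2:**
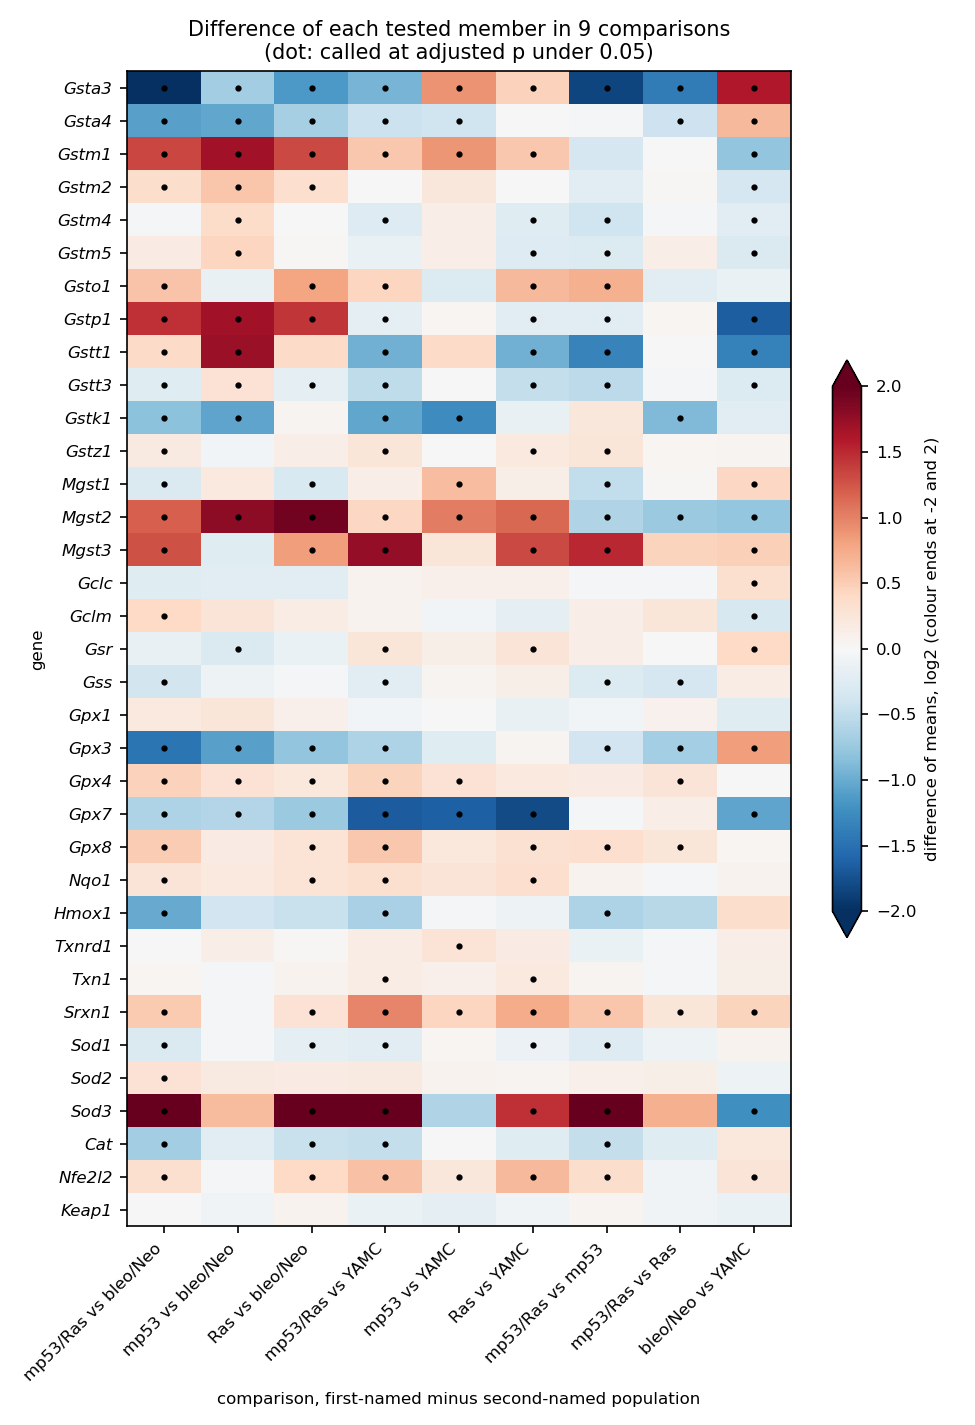
Differences of group means (log2, colour, first-named minus second-named population) for the 35 tested members (rows) in the 9 pairwise comparisons (columns), with a dot where the gene was called. The first 3 columns share the bleo/Neo arrays, against which Gstm1, Gstm2, Gstp1, Mgst2 and Gpx4 were higher, and Gsta3, Gsta4, Gpx3 and Gpx7 lower, in mp53/Ras, mp53 and Ras.

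Gstp1, the pi class transferase, separated the bleo/Neo cells from all others. Its lowest, median and highest values were 12.63, 12.80 and 12.91 in mp53/Ras, 12.87, 13.00 and 13.11 in mp53, 12.57, 12.72 and 13.10 in Ras, 11.11, 11.29 and 11.59 in bleo/Neo and 12.77, 13.01 and 13.11 in YAMC. The 10 bleo/Neo arrays lay below the other 40. The difference from bleo/Neo was 1.47 ± 0.05 in mp53/Ras (2.77-fold, adjusted p = 1.51e-28), 1.68 ± 0.05 in mp53 (3.2-fold) and 1.43 ± 0.05 in Ras (2.7-fold). The difference of bleo/Neo from YAMC was -1.64 ± 0.05 (0.32-fold, adjusted p = 1.19e-30). Against YAMC the differences were small: -0.18 ± 0.05 in mp53/Ras (adjusted p = 0.00462) and -0.21 ± 0.05 in Ras (adjusted p = 0.00133) were called, and 0.03 ± 0.05 in mp53 (adjusted p = 0.706) was not. The higher Gstp1 of the 3 oncogene populations was thus measured against bleo/Neo and not against the parental cells.

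The mu class transferases, a cluster of similar genes, were highest in mp53. Gstm1 had a lowest, median and highest value of 9.59, 9.83 and 10.11 in mp53/Ras, 8.57, 10.43 and 10.60 in mp53, 9.51, 9.82 and 10.21 in Ras, 8.30, 8.52 and 8.72 in bleo/Neo and 8.76, 9.41 and 9.81 in YAMC. All mp53/Ras and Ras arrays lay above all bleo/Neo arrays, as did 9 of the 10 mp53 arrays, and the exception was the array labelled mp53 8. Against bleo/Neo, Gstm1 was higher by 1.33 ± 0.15 in mp53/Ras (adjusted p = 7.78e-11), 1.68 ± 0.15 in mp53 and 1.33 ± 0.15 in Ras. The differences from YAMC were smaller, 0.54 ± 0.15, 0.89 ± 0.15 and 0.54 ± 0.15, and all 3 were called. Between mp53/Ras and mp53 the difference of -0.34 ± 0.15 was not called (adjusted p = 0.0525), and without the 4 arrays it was -0.59 ± 0.10 (adjusted p = 1.16e-06).

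The chosen Gstm1 probe set is of a type that can also bind related genes. Its other bright probe sets gave 0.80 to 1.48 in mp53/Ras and 1.09 to 1.77 in mp53 against bleo/Neo. Against YAMC they gave 0.10 to 0.60 in mp53/Ras, 0.53 to 0.82 in mp53 and 0.08 to 0.51 in Ras. The size of the mp53/Ras and Ras differences from YAMC therefore depends on the probe set. Gstm2 followed with differences from bleo/Neo of 0.35 ± 0.09 in mp53/Ras, 0.56 ± 0.09 in mp53 and 0.33 ± 0.09 in Ras, all called, and none of the 3 was called against YAMC. Gstm4 and Gstm5 were higher in mp53 than in bleo/Neo, by 0.36 ± 0.06 and 0.43 ± 0.10, and were not called in mp53/Ras or in Ras against bleo/Neo. Gstm4 passed the filter through 14 arrays only, 9 of mp53 and 5 of YAMC, and probes of these close relatives may share signal.

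Among the theta class transferases, Gstt1 set mp53 and YAMC apart from the rest. It had a lowest, median and highest value of 7.26, 7.54 and 7.89 in mp53/Ras, 7.70, 9.10 and 9.18 in mp53, 7.13, 7.37 and 9.38 in Ras, 6.98, 7.17 and 7.30 in bleo/Neo and 8.36, 8.49 and 8.92 in YAMC. The low mp53 value belonged to the array labelled mp53 10 and the high Ras value to the array labelled Ras 10. Gstt1 was higher by 1.72 ± 0.17 in mp53 than in bleo/Neo (3.3-fold, adjusted p = 2.47e-12). The difference of bleo/Neo from YAMC was -1.35 ± 0.17 (0.393-fold), and that of mp53/Ras from mp53 was -1.34 ± 0.17 (0.394-fold). In mp53/Ras it was 0.38 ± 0.17 above bleo/Neo (adjusted p = 0.0478), a call lost under 4 alternatives, and at -0.97 ± 0.17 from YAMC. Against bleo/Neo the Ras difference was 0.38 ± 0.17 (adjusted p = 0.0617) and, without the 4 arrays, 0.17 ± 0.07 (adjusted p = 0.0412). In mp53 against YAMC the difference was 0.38 ± 0.17 (adjusted p = 0.0938) and, without the 4 arrays, 0.58 ± 0.08 (adjusted p = 2.96e-08). Gstt3 differed from this order: its means in mp53 and YAMC were the highest and those in mp53/Ras and Ras the lowest, with differences from bleo/Neo of -0.23 ± 0.08 in mp53/Ras, 0.28 ± 0.08 in mp53 and -0.20 ± 0.08 in Ras.

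The alpha class transferases ran the other way and were highest in bleo/Neo. Gsta3, which conjugates aflatoxin epoxide in mice, had a lowest, median and highest value of 5.49, 5.70 and 6.0 in mp53/Ras, 6.88, 7.64 and 8.13 in mp53, 6.55, 7.14 and 7.65 in Ras, 7.73, 8.26 and 8.72 in bleo/Neo and 6.44, 6.51 and 7.33 in YAMC. Every mp53/Ras array lay below every array of the other 4 populations and below the table median. The difference of mp53/Ras was -2.54 ± 0.14 from bleo/Neo (0.172-fold, adjusted p = 6.33e-22), -1.84 ± 0.14 from mp53, -1.39 ± 0.14 from Ras and -0.94 ± 0.14 from YAMC. In bleo/Neo it was 1.60 ± 0.14 above YAMC. The mp53 and Ras cells were below bleo/Neo, at -0.70 ± 0.14 and -1.14 ± 0.14, and above YAMC, by 0.90 ± 0.14 and 0.46 ± 0.14. A dimmer Gsta3 probe set, mostly below the table median, gave -1.0 for mp53/Ras against bleo/Neo but 0.16 against mp53. Against YAMC it gave -0.08 in mp53/Ras, -0.24 in mp53 and 0.14 in Ras. The differences from YAMC and the place of mp53/Ras below mp53 therefore rest on the chosen probe set.

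Gsta4, which conjugates the lipid peroxidation product 4-hydroxynonenal, had a lowest, median and highest value of 9.95, 10.36 and 10.63 in mp53/Ras, 9.61, 10.48 and 11.29 in mp53, 10.26, 10.70 and 11.50 in Ras, 11.17, 11.44 and 11.79 in bleo/Neo and 10.31, 10.85 and 11.17 in YAMC. The mp53/Ras arrays lay below all bleo/Neo arrays, while the mp53 and Ras arrays overlapped them. The differences from bleo/Neo were -1.08 ± 0.14 in mp53/Ras (0.472-fold, adjusted p = 5.42e-09), -1.04 ± 0.14 in mp53 and -0.66 ± 0.14 in Ras. Against YAMC they were -0.43 ± 0.14, -0.39 ± 0.14 and -0.01 ± 0.14, the last not called.

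Gstk1, the kappa class transferase of mitochondria and peroxisomes, was lower in both populations with mutant p53. Its lowest, median and highest values were 5.79, 6.31 and 6.60 in mp53/Ras, 5.52, 5.80 and 7.32 in mp53, 5.92, 7.14 and 7.57 in Ras, 6.55, 7.09 and 7.77 in bleo/Neo and 5.71, 7.44 and 7.97 in YAMC. The lowest Ras and YAMC values came from the arrays labelled Ras 10 and YAMC 2, and the 2 highest mp53 values were those of the arrays labelled mp53 8 and mp53 10. Only 1 mp53/Ras array and 2 mp53 arrays lay above the table median, so the size of the Gstk1 differences rests on dim signal. Against bleo/Neo the difference was -0.83 ± 0.21 in mp53/Ras (adjusted p = 0.000785), -1.05 ± 0.21 in mp53 (0.483-fold, adjusted p = 6.89e-05) and 0.05 ± 0.21 in Ras (adjusted p = 0.872). Without the 4 arrays the mp53 difference was -1.33 ± 0.13 against bleo/Neo and -1.71 ± 0.13 against YAMC, where it was -1.25 ± 0.21 with them. Without them mp53/Ras was also higher than mp53 by 0.51 ± 0.13 (adjusted p = 0.00104), against 0.22 ± 0.21 with them (adjusted p = 0.399).

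Of the other cytosolic transferases, the omega class Gsto1 was higher in the cells with Ras. It was above bleo/Neo by 0.57 ± 0.13 in mp53/Ras and 0.78 ± 0.13 in Ras, above YAMC by 0.44 ± 0.13 and 0.65 ± 0.13, and not called in mp53. Gstz1, the zeta class enzyme of tyrosine breakdown, was higher in mp53/Ras by 0.18 ± 0.07 than in bleo/Neo and by 0.24 ± 0.07 than in YAMC.

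The membrane-bound transferases each had a different order. Mgst2, which can also make leukotriene C4, had a lowest, median and highest value of 7.79, 8.23 and 8.56 in mp53/Ras, 7.54, 8.96 and 9.18 in mp53, 8.39, 8.81 and 9.49 in Ras, 6.41, 7.0 and 7.33 in bleo/Neo and 7.42, 7.71 and 8.58 in YAMC. None of the 40 other arrays reached down to the bleo/Neo range. It was higher than in bleo/Neo by 1.19 ± 0.15 in mp53/Ras (2.28-fold), 1.79 ± 0.15 in mp53 (3.47-fold) and 1.93 ± 0.15 in Ras (3.81-fold, adjusted p = 3.57e-15). Against YAMC the differences were 0.41 ± 0.15, 1.02 ± 0.15 and 1.16 ± 0.15, all called. Mgst2 was lower in mp53/Ras than in mp53, at -0.61 ± 0.15, and than in Ras, at -0.74 ± 0.15 (adjusted p = 0.000255).

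Mgst3, a microsomal enzyme with transferase and peroxidase activity, was highest in mp53/Ras. The lowest, median and highest values were 10.40, 10.88 and 11.29 in mp53/Ras, 8.40, 9.43 and 9.72 in mp53, 9.10, 10.51 and 10.83 in Ras, 8.77, 9.79 and 10.14 in bleo/Neo and 8.50, 9.04 and 9.68 in YAMC. No mp53/Ras array overlapped mp53, bleo/Neo or YAMC, and 9 of the 10 Ras arrays also lay above the bleo/Neo range, the array labelled Ras 10 being the exception. The difference of mp53/Ras was 1.28 ± 0.17 from bleo/Neo (2.42-fold, adjusted p = 6.16e-09), 1.75 ± 0.17 from YAMC (3.37-fold) and 1.51 ± 0.17 from mp53. Ras was above bleo/Neo by 0.84 ± 0.17 and above YAMC by 1.32 ± 0.17, whereas mp53 was called against neither. Mgst1 was highest in mp53, which was 0.62 ± 0.12 above YAMC, and in mp53/Ras and Ras it was below bleo/Neo, at -0.29 ± 0.12 and -0.31 ± 0.12.

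**Figure D3:**
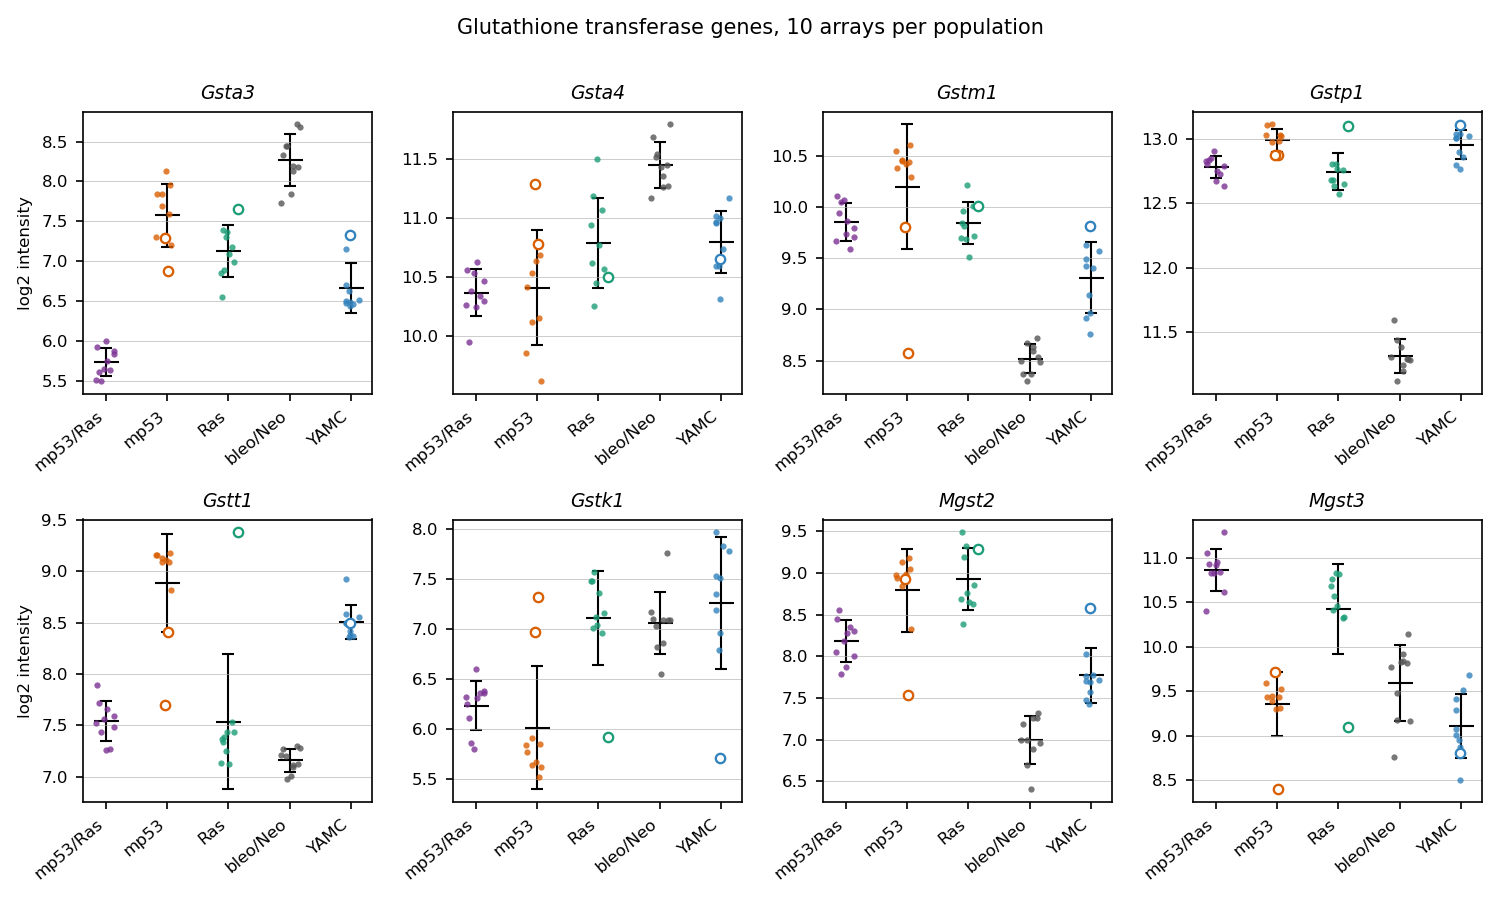
Log2 intensities of 8 glutathione transferase genes (vertical axes, each with its own range that does not start at 0) on the 10 arrays of each population (horizontal axes). Points are arrays, long bars the means, whiskers 1 SD, and open circles the arrays labelled mp53 8, mp53 10, Ras 10 and YAMC 2. Gstp1 and Mgst2 are lowest in bleo/Neo, Gsta3 lies below the other populations in mp53/Ras, and open circles lie away from their groups for Gstt1, Gstk1 and Mgst3.

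On the chosen probe sets, the enzymes that make and recycle glutathione changed little. Gclc, the catalytic subunit of glutamate-cysteine ligase, was called in bleo/Neo against YAMC only (0.32 ± 0.12). A second bright Gclc probe set gave 0.25 there, and -0.43 in mp53/Ras, -0.47 in mp53 and -0.10 in Ras against bleo/Neo. Its partner Gclm was higher in mp53/Ras than in bleo/Neo by 0.39 ± 0.11 (adjusted p = 0.00256) and lower in bleo/Neo than in YAMC (-0.32 ± 0.11). Both rest on the chosen probe set, since a second bright Gclm probe set gave 0.08 and 0.16. Glutathione synthetase, Gss, was lower in mp53/Ras than in each other population, at -0.37 ± 0.07 against bleo/Neo, -0.27 ± 0.07 against mp53, -0.33 ± 0.07 against Ras and -0.22 ± 0.07 against YAMC. The mp53/Ras arrays of Gss, 9.67 to 9.90, did not overlap those of mp53, Ras or bleo/Neo. A second bright Gss probe set gave -0.59 against bleo/Neo, -0.43 against mp53, -0.53 against Ras and -0.48 against YAMC. Glutathione reductase, Gsr, was lowest in YAMC, with mp53/Ras 0.25 ± 0.09, Ras 0.26 ± 0.09 and bleo/Neo 0.40 ± 0.09 above it, and mp53 was below bleo/Neo, at -0.29 ± 0.09. A second bright Gsr probe set gave 0.45, 0.28 and 0.27 against YAMC, and -0.29 in mp53 against bleo/Neo. For mp53/Ras it gave 0.18 against bleo/Neo, beside -0.15 on the chosen probe set, and 0.47 against mp53, beside 0.14.

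The peroxidases split. Gpx3, the secreted plasma form, was lower than in bleo/Neo with either oncogene and lowest with both. The lowest, median and highest values were 5.67, 6.11 and 6.45 in mp53/Ras, 6.24, 6.58 and 6.73 in mp53, 6.63, 6.80 and 7.04 in Ras, 7.08, 7.50 and 8.34 in bleo/Neo and 6.14, 6.78 and 7.10 in YAMC. All 30 arrays with an oncogene lay below all bleo/Neo arrays. The differences from bleo/Neo were -1.47 ± 0.12 in mp53/Ras (0.362-fold, adjusted p = 1.17e-15), -1.08 ± 0.12 in mp53 and -0.79 ± 0.12 in Ras. The bleo/Neo cells themselves were 0.84 ± 0.12 above YAMC, and against YAMC mp53/Ras was called, at -0.62 ± 0.12 (adjusted p = 8.99e-06), and mp53 only without the 4 arrays, at -0.35 ± 0.12 (adjusted p = 0.0186). Of the 10 mp53/Ras arrays, 1 lay above the table median, so the size of this difference rests on dim signal.

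Gpx7, a peroxidase of the endoplasmic reticulum, was highest in YAMC. It had a lowest, median and highest value of 7.06, 7.45 and 7.82 in mp53/Ras, 6.75, 7.29 and 9.31 in mp53, 6.78, 7.35 and 7.76 in Ras, 7.73, 8.07 and 8.33 in bleo/Neo and 7.18, 9.28 and 9.55 in YAMC. The highest mp53 value was that of the array labelled mp53 8 and the lowest YAMC value that of the array labelled YAMC 2; with those aside, the mp53/Ras, mp53 and Ras arrays all lay below the YAMC range. The difference from YAMC was -1.66 ± 0.21 in mp53/Ras (0.316-fold), -1.64 ± 0.21 in mp53, -1.80 ± 0.21 in Ras (0.288-fold) and -1.05 ± 0.21 in bleo/Neo. Without the 4 arrays these were -1.87 ± 0.11, -2.09 ± 0.12, -2.06 ± 0.11 and -1.26 ± 0.11. Against bleo/Neo the differences of mp53/Ras, mp53 and Ras were -0.62 ± 0.21, -0.59 ± 0.21 and -0.75 ± 0.21, all called.

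The endoplasmic reticulum relative Gpx8 and the phospholipid peroxidase Gpx4, which protects membranes from lipid peroxidation, were higher in mp53/Ras. Gpx8 values of 11.65 to 11.88 in mp53/Ras lay above all mp53, bleo/Neo and YAMC arrays, with a difference of 0.51 ± 0.08 from bleo/Neo and 0.55 ± 0.08 from YAMC. Gpx4 was higher in mp53/Ras by 0.46 ± 0.08 than in bleo/Neo and by 0.45 ± 0.08 than in YAMC, and in mp53 by 0.29 ± 0.08 and 0.28 ± 0.08. Gpx1, the main cytosolic peroxidase, was called in none of the 9 pairwise comparisons, with differences between -0.25 ± 0.12 and 0.25 ± 0.12.

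Sod3, the extracellular superoxide dismutase, showed the largest difference of any member. Its lowest, median and highest values were 9.74, 10.32 and 11 in mp53/Ras, 6.48, 7.02 and 9.73 in mp53, 6.95, 9.86 and 10.59 in Ras, 6.24, 6.77 and 7.98 in bleo/Neo and 6.22, 8.20 and 9.39 in YAMC. All mp53/Ras arrays lay above all mp53, bleo/Neo and YAMC arrays, and 9 of the 10 Ras arrays lay above the bleo/Neo range, the array labelled Ras 10 being the exception. The difference of mp53/Ras was 3.39 ± 0.35 from bleo/Neo (10.5-fold, adjusted p = 7.53e-12), 2.77 ± 0.35 from mp53 (6.81-fold) and 2.17 ± 0.35 from YAMC (4.5-fold). Ras was higher by 2.68 ± 0.35 than bleo/Neo (6.43-fold) and by 1.46 ± 0.35 than YAMC, and without the 4 arrays by 2.98 ± 0.22 and 1.54 ± 0.23. In mp53 the difference from bleo/Neo was 0.63 ± 0.35 (adjusted p = 0.165), and without the 4 arrays 0.19 ± 0.23 (adjusted p = 0.535). Against YAMC the mp53 difference of -0.60 ± 0.35 was not called (adjusted p = 0.223) but was called at -1.24 ± 0.24 without the 4 arrays (adjusted p = 4.39e-05).

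A second bright Sod3 probe set also gave large differences in mp53/Ras, 2.66 from bleo/Neo and 2.48 from YAMC. It differed for bleo/Neo against YAMC, with -0.18 beside -1.22 ± 0.35 on the chosen probe set, so that decrease rests on 1 of 2 probe sets. The intracellular enzymes moved less. Sod1, the cytosolic form, was lower than in bleo/Neo in mp53/Ras (-0.28 ± 0.04) and in Ras (-0.18 ± 0.04). Sod2, the mitochondrial form, was higher in mp53/Ras than in bleo/Neo by 0.28 ± 0.10 and was called in no other pairwise comparison. Catalase, Cat, had a lowest, median and highest value of 10.30, 10.77 and 11.04 in mp53/Ras and 10.98, 11.40 and 12.09 in bleo/Neo, a difference of -0.69 ± 0.11 (0.619-fold, adjusted p = 8.9e-07), and a second bright probe set gave -0.70. It was also lower in Ras than in bleo/Neo, at -0.45 ± 0.11.

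**Figure D4:**
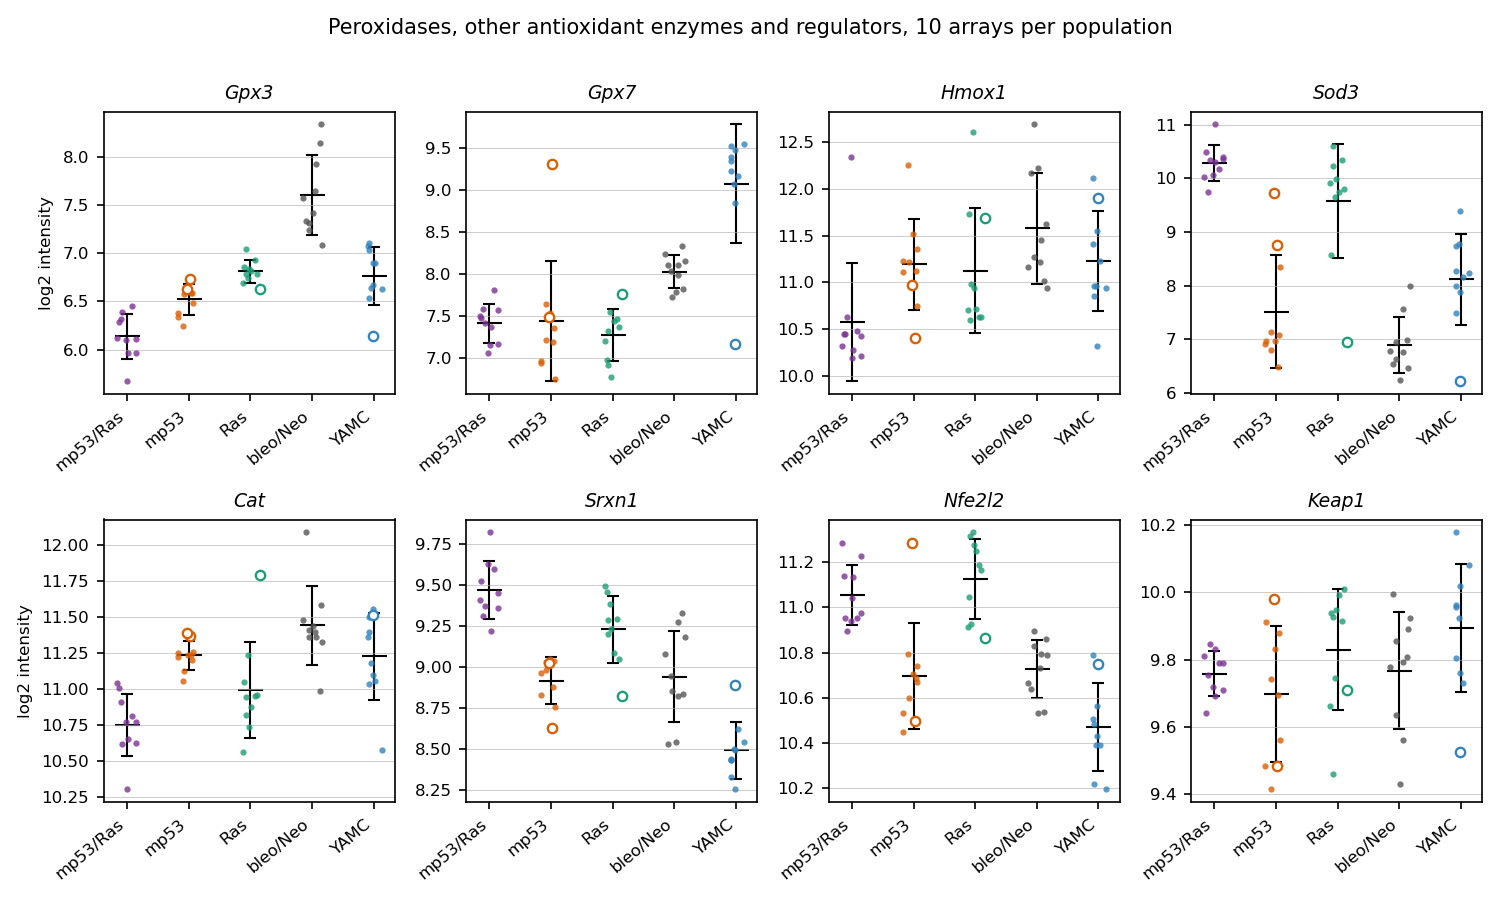
Log2 intensities of 2 peroxidases, 4 other antioxidant enzymes and the regulators Nfe2l2 and Keap1 (vertical axes, each with its own range that does not start at 0) on the 10 arrays of each population (horizontal axes). Points are arrays, long bars the means, whiskers 1 SD, and open circles the arrays labelled mp53 8, mp53 10, Ras 10 and YAMC 2. Sod3 is highest in mp53/Ras and Ras, Gpx7 is highest in YAMC, and 1 array at 12.35 stands apart among the mp53/Ras values of Hmox1.

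The regulator Nfe2l2 was higher in both populations with Ras. Its lowest, median and highest values were 10.90, 11.01 and 11.29 in mp53/Ras, 10.45, 10.68 and 11.29 in mp53, 10.86, 11.18 and 11.33 in Ras, 10.53, 10.76 and 10.90 in bleo/Neo and 10.19, 10.46 and 10.79 in YAMC. The mp53/Ras arrays did not overlap bleo/Neo or YAMC, and the Ras arrays did not overlap YAMC. The difference from bleo/Neo was 0.33 ± 0.08 in mp53/Ras (1.25-fold, adjusted p = 0.000597) and 0.40 ± 0.08 in Ras (1.32-fold), and from YAMC 0.58 ± 0.08 and 0.66 ± 0.08. With the mean of both Nfe2l2 probe sets, the differences from bleo/Neo were 0.03 ± 0.06 in mp53/Ras (adjusted p = 0.656) and 0.10 ± 0.06 in Ras (adjusted p = 0.204) and were not called, while those from YAMC, 0.41 ± 0.06 and 0.47 ± 0.06, were. The second probe set is dim, averaging 4.87 to 5.37, and gave -0.26 and -0.20 against bleo/Neo. In mp53 it was -0.03 ± 0.08 from bleo/Neo (adjusted p = 0.801) and 0.22 ± 0.08 from YAMC, a call that was lost without the arrays labelled mp53 10 and Ras 10 (0.16 ± 0.07, adjusted p = 0.103). Keap1 spanned 9.42 to 10.18 over all 50 arrays with overlap between all groups, and none of its 9 pairwise differences was called, the largest being -0.20 ± 0.08 in mp53 against YAMC (adjusted p = 0.0644). Without the 4 arrays that difference was -0.24 ± 0.08 (adjusted p = 0.0131), and that of mp53/Ras from YAMC, -0.14 ± 0.08 with them, was -0.18 ± 0.07 (adjusted p = 0.0382). A second bright Keap1 probe set, over all arrays, gave -0.14 in mp53 but 0.17 in mp53/Ras against YAMC. For mp53/Ras against mp53 it gave 0.32, beside 0.06 on the chosen probe set.

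Of the enzymes often used as readouts of NRF2, Srxn1, which repairs over-oxidised peroxiredoxins, was higher in mp53/Ras than in each other population. The difference was 0.53 ± 0.09 against bleo/Neo, 0.55 ± 0.09 against mp53, 0.24 ± 0.09 against Ras and 0.98 ± 0.09 against YAMC (1.97-fold, adjusted p = 3.84e-13). Its 10 mp53/Ras arrays lay between 9.22 and 9.82 and its 10 YAMC arrays between 8.25 and 8.89. The other bright Srxn1 probe sets gave 1.03 and 1.06 against YAMC, except 1 that gave 0.04. Nqo1, a quinone reductase, was higher in mp53/Ras and Ras by 0.26 ± 0.10 and 0.28 ± 0.10 than in bleo/Neo, and by 0.32 ± 0.10 and 0.34 ± 0.10 than in YAMC. The thioredoxin reductase Txnrd1 was called in mp53 against YAMC only (0.27 ± 0.10), and thioredoxin, Txn1, in mp53/Ras (0.15 ± 0.05) and Ras (0.19 ± 0.05) against YAMC only.

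Hmox1, which breaks down heme and is another NRF2 target, went the other way. Its lowest, median and highest values were 10.19, 10.44 and 12.35 in mp53/Ras, 10.41, 11.17 and 12.26 in mp53, 10.60, 10.83 and 12.61 in Ras, 10.94, 11.36 and 12.69 in bleo/Neo and 10.32, 11.10 and 12.12 in YAMC. Of the 10 mp53/Ras arrays, 9, at 10.19 to 10.63, lay below all bleo/Neo arrays, and replicate 10 lay at 12.35. The difference of mp53/Ras was -1.0 ± 0.25 from bleo/Neo (0.5-fold, adjusted p = 0.000683), -0.65 ± 0.25 from YAMC (adjusted p = 0.0245) and -0.62 ± 0.25 from mp53 (adjusted p = 0.0389). Leaving out mp53/Ras replicate 10, an alternative added after the values were seen, gave -1.20, -0.84 and -0.81.

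The promoters of the members were searched for the antioxidant response element, the site that NRF2 binds with a small MAF protein. RefSeq sequences (build GRCm38.p6) of the 250 bases before the start were at hand for 31 members. The core TGACNNNGC, on either strand, was found for 8 of the 31 (25.8%): Gsta3, Nfe2l2, Gstm5, Gclm, Prdx1, Mgst1, Txnrd1 and Sod1. It was found for 12% of the 17492 protein-coding genes with such a window. A related form, TGANTCAGC, which overlaps TGACNNNGC where its open base is C and which was added after the windows had been seen, was found for Srxn1, Prdx1 and Gstp1, 9.68% of the members and 1.13% of the protein-coding genes. Some genes have several windows, and by window the shares were 19.5% and 7.32% of the 41 member windows, beside 10.2% and 1.02% of all windows. A match is a run of letters and not a measured site. The windows of 4 genes are shown, with matches to either form in capitals: Gstp1 and Srxn1 because they share the letters TGAGTCAGC and differ in their order across the populations, Mgst2 because it was higher than bleo/Neo in the same populations as Gstp1 and has no match, and Gsta3 because it has the core and was lowest in mp53/Ras. Each reads 5′ to 3′ on the strand of the gene, at chr19:4037913-4038162 (minus strand) for Gstp1, chr2:152105274-152105523 (plus strand) for Srxn1, chr3:51660929-51661178 (plus strand) for Mgst2 and chr1:21240335-21240584 (plus strand) for Gsta3.
Gstp1 promoter: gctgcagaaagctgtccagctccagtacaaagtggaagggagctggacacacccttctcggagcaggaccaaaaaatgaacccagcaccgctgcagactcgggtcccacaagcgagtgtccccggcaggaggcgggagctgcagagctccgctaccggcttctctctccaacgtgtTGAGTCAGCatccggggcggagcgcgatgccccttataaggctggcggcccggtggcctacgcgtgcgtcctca
Srxn1 promoter: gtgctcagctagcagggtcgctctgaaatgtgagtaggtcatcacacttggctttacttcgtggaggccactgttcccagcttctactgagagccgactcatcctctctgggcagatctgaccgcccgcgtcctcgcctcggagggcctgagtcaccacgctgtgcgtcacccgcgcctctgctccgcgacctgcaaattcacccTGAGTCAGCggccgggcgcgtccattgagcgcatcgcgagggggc
Mgst2 promoter: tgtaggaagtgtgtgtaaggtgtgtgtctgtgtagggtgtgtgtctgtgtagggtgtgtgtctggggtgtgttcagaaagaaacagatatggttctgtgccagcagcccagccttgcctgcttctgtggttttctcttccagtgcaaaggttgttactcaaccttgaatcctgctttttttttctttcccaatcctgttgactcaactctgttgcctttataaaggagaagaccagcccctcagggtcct
Gsta3 promoter: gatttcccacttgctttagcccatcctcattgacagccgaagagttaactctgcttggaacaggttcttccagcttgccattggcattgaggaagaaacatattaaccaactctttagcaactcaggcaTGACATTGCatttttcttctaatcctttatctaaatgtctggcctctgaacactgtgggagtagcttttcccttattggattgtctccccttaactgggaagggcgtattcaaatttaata
The capitals begin 74 bases before the start in Gstp1, 45 in Srxn1 and 121 in Gsta3. Among the 8 members with the core, 7 were tested, and their calls in mp53/Ras against bleo/Neo ran both ways: Gclm and Nfe2l2 were higher, Gsta3, Mgst1 and Sod1 lower, and Gstm5 and Txnrd1 were not called.

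Whether mutant p53 shifted a gene by the same amount with Ras as without it was tested by a non-additive term, mp53/Ras minus Ras less mp53 minus bleo/Neo. It was called for 10 of the 35 members: positive for 2 (11.8% of all genes) and negative for 8 (12%), 28.6% of members beside 23.9% of all genes. All 10 are transferases, of which 12 cytosolic and 3 membrane-bound ones were among the 35. Gstm4 had 0 arrays above the table median in mp53/Ras, Ras and bleo/Neo, so its term rests on dim signal. Terms of at least 1 in size were called negative for 4 members (1.86% of all genes) and positive for 0 (1.27%). The most negative was that of Mgst2, -2.54 ± 0.22 (adjusted p = 1.72e-13): the mp53 minus bleo/Neo difference was 1.79, and the mp53/Ras minus Ras difference was -0.74. Gstt1 (-1.72 ± 0.23), Gstm1 (-1.67 ± 0.21) and Gstp1 (-1.64 ± 0.08) had differences of 1.68 to 1.72 between mp53 and bleo/Neo and of 0.00 to 0.03 between mp53/Ras and Ras. Gsta3 was at -0.70 ± 0.19, Gstm2 at -0.54 ± 0.13, Gstm4 at -0.38 ± 0.08 and Gstt3 at -0.32 ± 0.11, and the positive terms were those of Mgst3 (0.67 ± 0.24, adjusted p = 0.0317) and Gsta4 (0.62 ± 0.20, adjusted p = 0.0185). Sod3, with 0.08 ± 0.49 (adjusted p = 0.926), had an interval too wide to show additivity.

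Because bleo/Neo is the baseline of this term, it was computed again with YAMC in its place. Mgst2 (-1.76 ± 0.22), Gstm1 (-0.88 ± 0.21) and Gsta3 (-2.30 ± 0.19) remained called. The Gsta3 term rests on the chosen probe set: with the mean of all its probe sets and bleo/Neo as the baseline it was 0.12 ± 0.15 and not called (adjusted p = 0.629). Gstp1 was at 0.00 ± 0.08, Gsta4 at -0.03 ± 0.20, Gstt1 at -0.37 ± 0.23 and Mgst3 at 0.20 ± 0.24, and these, Gstm2, Gstm4 and Gstt3 were not called. The Mgst3 term was also 0.45 ± 0.19 without the 4 arrays (adjusted p = 0.0732), and that of Gpx7, 0.72 ± 0.30 with them (adjusted p = 0.0685), was 1.01 ± 0.16 without them (adjusted p = 2.05e-06).

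**Figure D5:**
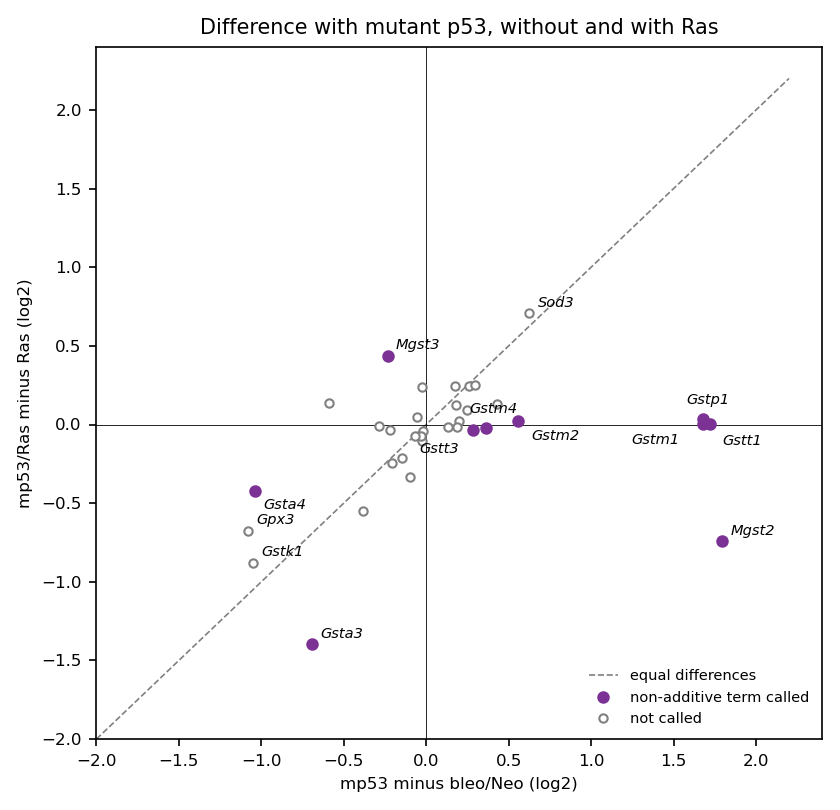
Difference of mp53/Ras minus Ras (vertical axis, log2) against mp53 minus bleo/Neo (horizontal axis, log2) for the 35 tested members, each a point, filled where the non-additive term was called. The dashed line marks equal differences. Gstp1, Gstm1 and Gstt1 lie near 1.7 on the horizontal and near 0 on the vertical axis, Mgst2 lies below 0 on the vertical axis, and Sod3 lies close to the line.

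The order of the population means grouped the members further. The highest mean was in mp53 for 10 members (28.6%, beside 12.7% of all genes), among them Gstm1, Gstm2, Gstm4, Gstm5, Gstp1, Gstt1, Gstt3 and Mgst1. The lowest mean was in bleo/Neo for 11 (31.4%, beside 22.2%) and in YAMC for another 11 (31.4%, beside 23.7%), which included Srxn1, Nqo1, Txn1, Txnrd1, Gclc, Gsr and Nfe2l2. In 9 members (25.7%, beside 10.3% of all genes) Ras was called higher than both bleo/Neo and YAMC: Gstm1, Gsto1, Mgst2, Mgst3, Gpx8, Nqo1, Srxn1, Sod3 and Nfe2l2. The range from the lowest to the highest population mean had a median of 0.56 over the members and 0.41 over all tested genes.

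A wider list of 83 other glutathione, thioredoxin and NRF2 pathway genes had 71 tested. In mp53/Ras 25 of them were higher and 16 lower than in bleo/Neo (57.7% called, beside 54.6% of all genes), and 31 were higher and 20 lower than in YAMC (71.8%, beside 57.8%). In mp53 12 were higher and 13 lower than in bleo/Neo (35.2%, beside 35.4%), and in Ras 19 were higher and 15 lower (47.9%, beside 41.1%). Aldh3a1, an aldehyde dehydrogenase that clears lipid aldehydes and is counted among NRF2 targets, was at least 2-fold changed in the same direction against both controls. Its lowest, median and highest values were 7.67, 8.12 and 8.84 in mp53/Ras, 4.67, 4.87 and 7.53 in mp53, 5.89, 8.23 and 8.92 in Ras, 4.65, 5.27 and 5.78 in bleo/Neo and 4.68, 4.87 and 5.18 in YAMC. The mp53/Ras and Ras arrays lay above all bleo/Neo and YAMC arrays, which were all below the table median. The populations in which Aldh3a1 is high carried it past the filter, so its differences from bleo/Neo, 2.92 ± 0.25 in mp53/Ras and 2.83 ± 0.25 in Ras, are a description whose size rests on dim signal in the controls.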

How the data were processed

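The authors deposited 1 linear intensity per probe set for each of the 50 Affymetrix arrays, and the submitters' processing notes list RMA with no version number. The arrays have medians of 86.4 to 86.7, so they had been brought to a common scale before deposit. The table holds no detection calls, scan dates or batches.

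The deposited intensities were taken to log2 with no offset. Of 45037 probe sets with values, the 34945 annotated to exactly 1 symbol gave 18193 symbols, each represented by its brightest probe set. Genes above the table median (6.44, log2) on at least 10 arrays were tested (12883) with limma 3.58.1 in R 4.3.3, with 1 coefficient per group over all 50 arrays and an intensity trend. P-values were adjusted by Benjamini-Hochberg within each comparison and called under 0.05. In data simulated for mp53/Ras against bleo/Neo with 12883 genes, 100 were changed by 0.5 and 100 by 1 (log2), with independent normal noise. Of these, 75% and 98% were recovered, and 2.81% of calls were on unchanged genes. In the measured comparison 54.6% of genes were called and same-numbered arrays had correlated deviations. The simulated shares therefore do not carry over to it.

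The members, the other pathway list and the cell type markers were chosen with earlier results of these data known. Members were described in full where called at least 2-fold in any pairwise comparison, with Nfe2l2 and Keap1 added; other pathway genes were named where this held in the same direction against both controls. Promoters are RefSeq sequences (GRCm38.p6). Alternatives changed the filter, offset, moderation, array weights, normalisation, probe set summary, replicate block, arrays and baseline.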

Additional observations from a re-analysis of the deposited data

Results flagged for a closer look

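The 14 members described in full gave 70 sets of 10 arrays. In 16 of these the highest or lowest array stood apart from the other 9 by Dixon's ratio (above 0.466), where chance flags about 1 set in 20, or about 3.5 of 70. Of the 16, 13 lay on the 4 arrays nearest another group's mean.

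On the array labelled mp53 8, Gstm1 was at 8.57 (others 9.80 to 10.60), Mgst2 at 7.54 (8.33 to 9.18), Mgst3 at 8.40 (9.30 to 9.72) and Gpx7 at 9.31 (6.75 to 7.65). The array labelled mp53 10 had Gstt1 at 7.70 (8.41 to 9.18) and Nfe2l2 at 11.29 (10.45 to 10.80). On the array labelled Ras 10, Gstp1 was at 13.10 (12.57 to 12.81), Gstt1 at 9.38 (7.13 to 7.53), Gstk1 at 5.92 (6.96 to 7.57) and Mgst3 at 9.10 (10.32 to 10.83). The array labelled YAMC 2 had Gstk1 at 5.71 (6.79 to 7.97), Mgst2 at 8.58 (7.42 to 8.03) and Gpx7 at 7.18 (8.84 to 9.55).

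The other 3 were Gstt1 at 8.92 on YAMC replicate 8 (8.36 to 8.58), Gstk1 at 7.77 on bleo/Neo replicate 4 (6.55 to 7.17) and Hmox1 at 12.35 on mp53/Ras replicate 10 (10.19 to 10.63).

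For 7 of these members the non-additive term of the limma fit was called with bleo/Neo as the baseline. With YAMC as the baseline those of Gstp1, Gstt1, Gsta4 and Mgst3 were not called. The Gsta3 term was not called with the mean of all its probe sets. With bleo/Neo as the baseline and the chosen probe sets, the term was -2.54 for Mgst2 (adjusted p = 1.72e-13), -1.72 for Gstt1 (adjusted p = 9.77e-08), -1.67 for Gstm1 (adjusted p = 1.49e-08), -1.64 for Gstp1 (adjusted p = 9.37e-24), -0.70 for Gsta3 (adjusted p = 0.00521), 0.62 for Gsta4 (adjusted p = 0.0185) and 0.67 for Mgst3 (adjusted p = 0.0317).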

How the results depend on the processing

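Counts of members called were mostly within 1.5 times their main value: 226 counts were and 16 were not, over all comparisons and alternatives. With array weights, mp53 against bleo/Neo had 15 higher and 10 lower (25% and 27.1% of all genes at this setting), mp53 against YAMC 16 and 6 (23.8% and 22.6%), mp53/Ras against mp53 11 higher (31.2%), mp53/Ras against Ras 6 higher (19.2%), and the non-additive term 6 positive (20.2%); under these weights 58 more pairs of member and comparison were called and 1 was lost. Without arrays nearest another group's mean, the members lower in mp53 against YAMC numbered 6 to 7 (12.8% to 16.9% of all genes), and those higher in mp53/Ras against Ras 1 to 3 (9.14% to 11.1%). With only the groups of a comparison in the fit, mp53 against YAMC had 5 higher (7.64%) and the non-additive term 4 positive (12.9%). The replicate block gave 4 positive terms (14%). The labels' replicate numbers were not taken as pairs in the main fit, so its standard errors and p-values treat the arrays as independent. Same-numbered arrays of different groups had correlated deviations in 67 of 100 pairs (over 0.1). Their correlation had a median of 0.186 (range -0.515 to 0.747), beside -0.0235 for arrays of other numbers. For 31 of 50 arrays the best-correlated array of another group had the same number. What same-numbered arrays share is not given by the labels. The block added 19 calls and lost 1. The mean of all probe sets gave 1 positive term (12.8%), and YAMC in place of bleo/Neo 1 positive and 5 negative (5.42% and 7.02%).

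No called member turned to a call of the opposite sign under any alternative. Of the described members, 3 terms turned sign without being called: Gsta3 at 0.12 with the mean of all probe sets, and Gsta4 at -0.0295 and Gstp1 at 0.0022 with YAMC as the baseline. Another 14 values lost their call, among them Gstt1 in mp53/Ras against bleo/Neo (without the filter, with log2(value + 16), with cyclic loess and with the block), and Nfe2l2 against bleo/Neo with the mean of all probe sets (0.03 in mp53/Ras and 0.10 in Ras), where its second probe set is dim. The cause of the other losses was not tested. Genes near the dim end, such as Gsta3 in mp53/Ras, Gpx3, Gstk1 and Gstm4, may have compressed differences, since no detection calls were used here.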

Other observations

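Hmox1 was chosen for this remark after its values were seen. Replicate 9 was the highest array of mp53 (12.26), Ras (12.61), bleo/Neo (12.69) and YAMC (12.12), whereas in mp53/Ras replicate 9 was at 10.32 and replicate 10 was the highest (12.35). In Ras, replicates 8 (11.74) and 10 (11.69) also lay above the other 7, at 10.60 to 10.98, and in bleo/Neo replicates 8 (12.2) and 10 (12.17) above the other 7, at 10.94 to 11.63.

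Among the 12 tested cytosolic transferases, 6 were higher and 4 lower in mp53/Ras than in bleo/Neo (26.7% and 27.9% of all genes), and 3 were higher and 7 lower than in YAMC (29.1% and 28.7%). Of the 3 membrane transferases, Mgst2 had its highest mean in Ras, Mgst3 in mp53/Ras and Mgst1 in mp53. Of the 2 tested peroxidases of the endoplasmic reticulum, Gpx7 was lower and Gpx8 higher in mp53/Ras than in both controls. Of the 3 dismutases, the extracellular Sod3 was higher and the cytosolic Sod1 lower in mp53/Ras and in Ras than in both controls. The Sod1 difference from YAMC depends on the probe set. Its other bright probe sets gave -0.05 and -0.67 in mp53/Ras and -0.02 and -0.49 in Ras.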
